A study of Mus musculus with 4 samples.

Results

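The nuclear-encoded subunits of respiratory chain complexes I to IV were followed in differentiating mouse muscle cells with and without interferon-gamma (IFN-γ). The rule for members used gene names and no measured value, taking probes whose transcript accession belongs to a numbered Ndufa, Ndufb, Ndufc, Ndufs or Ndufv gene, to Sdha to Sdhd, to a gene whose symbol begins with Uqcr, or to one of 10 widely expressed Cox genes of complex IV. They made up 75 of 39429 probes and 58 of 19751 named genes, with 36 genes in complex I, 4 in complex II, 8 in complex III and 10 in complex IV. All 58 were well above background on the 4 arrays in both channels and all were tested. Of the 61 genes that fit these names in the RefSeq gene table, Ndufb1 and the pseudogenes Uqcrh-ps1 and Uqcrh-ps2 were assigned no probe. Ndufa4 is counted with complex I here because of its name, although its protein is now placed in complex IV.

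The cells were C2C12, an established mouse myoblast line that fuses into myotubes in low serum. Treated cultures were differentiated for 3 days in horse serum medium with IFN-γ at 1 ng/ml, and control cultures were differentiated in the same way with no cytokine. Each of 4 two-colour arrays, labelled biological replicates 1 to 4, carried treated RNA in Cy5 and control RNA in Cy3. Whether each array had a control culture of its own is not given in the labels. The p-values therefore cover only array-to-array spread, which can include technical spread. No dye swap was made, so dye and treatment cannot be told apart. Values below are log2 ratios of treated over control after loess normalisation within each array, with the SD over arrays, unless another scale is named.

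Complex I (NADH dehydrogenase) and complex II (succinate dehydrogenase) pass electrons to ubiquinone, complex III (cytochrome bc1) passes them on to cytochrome c, and complex IV (cytochrome c oxidase) reduces oxygen. Complexes I, III and IV pump protons, and ATP synthase, complex V, uses the gradient. Most subunits are encoded in the nucleus, while the mitochondrial genome encodes a few core subunits of complexes I, III and IV and none of complex II. Differentiation of myoblasts is known to raise mitochondrial content, and the factors NRF1, GABP (an ETS protein) and YY1 are known regulators of many of these genes.

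RefSeq promoter windows of 300 bases, 250 before and 50 after the gene start, were at hand for 48 of the 58 members, in 50 windows, on build GRCm38.p6. The core letters of the NRF1 motif, GCATGCGC, stood on either strand in 14% of the 50 windows and in 2.71% of all 32851 windows. The ETS letters CCGGAAG stood in 22% against 8.86%, and the YY1 letters AAGATGGCG in 10% against 1.4%. Letters of interferon elements were no more frequent in members, with TTCNNNGAA (gamma-activated site) in 4% against 8.3% and TTTCNNTTT (interferon-stimulated element) in 8% against 10.6%. Such matches describe letters only. The 120 bases before the start are shown for 4 members that passed the test described below, 1 lower in complex II, 1 lower in complex IV and both members that rose with a match of interferon-element letters. Capitals mark the match, in Sdhb that of NRF1 and in Ndufa10 and Ndufs4 that of the interferon-stimulated element, whose first base lay 54, 103 and 80 bases before the start. Cox7c held none of the 5 motifs in this stretch. Neither did Cox5b, Cox8a, Ndufa3, Ndufb8, Ndufb10, Ndufb11 and Ndufv1, called members that are not shown. The letters of the interferon-stimulated element also stood in the windows of Ndufa9 and Ndufs3, which did not pass. They were absent from the window of Ndufb8, which was called higher.

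Sdhb, chr4:140961151-140961270, plus strand: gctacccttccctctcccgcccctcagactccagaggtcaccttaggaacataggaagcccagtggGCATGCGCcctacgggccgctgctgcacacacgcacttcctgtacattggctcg
Cox7c, chr13:86046796-86046915, minus strand: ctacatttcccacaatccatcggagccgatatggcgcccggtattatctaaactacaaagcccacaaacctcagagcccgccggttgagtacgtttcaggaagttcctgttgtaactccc
Ndufa10, chr1:92473759-92473878, minus strand: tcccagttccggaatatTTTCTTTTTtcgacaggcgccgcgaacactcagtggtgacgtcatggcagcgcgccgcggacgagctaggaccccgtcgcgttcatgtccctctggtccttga
Ndufs4, chr13:114388095-114388214, minus strand: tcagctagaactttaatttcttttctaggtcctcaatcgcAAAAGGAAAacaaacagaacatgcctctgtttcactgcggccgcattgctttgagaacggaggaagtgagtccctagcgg

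Median spot intensities per array lay between 79.75 and 97 in Cy3 and between 149.5 and 264 in Cy5, and the number of arrays limits the precision. The lowest Cy5 median, 149.5, was that of replicate 2, against 224, 264 and 234 on replicates 1, 3 and 4. Whether this bears on the ratios of replicate 2 was not tested. Ratios of replicate 2 correlated with those of the other arrays at r = 0.629 to 0.716 across the 15673 genes tested, against 0.862 to 0.898 among the other arrays. Irf1, a transcription factor induced by interferon, had a ratio of 2.74 ± 0.20 (SD, n = 4). All 9 myoblast and myotube markers were above background in control RNA on 4 arrays, 5 of them were lower and 1 higher in treated cells, and their median was −0.62. All 5 tested fibroblast markers were above background too, with 3 higher and a median of 0.34. Of 6 macrophage, 5 endothelial and 5 adipocyte markers, 3, 2 and 0 were above background in control RNA on 4 arrays. The part of these shifts in the values of the respiratory chain was not tested, and in RNA of whole cultures fewer cells of a type and less RNA per cell cannot be told apart.

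Few respiratory chain subunits passed the test and their ratios were small, with a median below 0 under loess and above 0 under median centring. Expression was higher for 4 members and lower for 9 at an adjusted p under 0.05 (limma, Benjamini-Hochberg over 15673 genes), and 45 did not pass. The methods' t-test ended all 13 calls and plain background subtraction ended 4 of them. The calls are 22.4% of members called, against 33.7% of all genes tested, with 6.9% higher against 19.8% and 15.5% lower against 13.9%. No member that passed changed by 2-fold, as 2.78% of all genes did, and 19 members had an unadjusted p under 0.05. The absolute log2 ratio of the 13 called members ran from 0.257 to 0.651. The median over members was −0.16 and that over all genes tested 0.03, and 49 of the 58 members lay below the latter. Ratios were below 0 on all 4 arrays for 36.2% of members and 22.7% of all genes, and above 0 on all 4 for 8.62% and 29.5%. Under median centring, which shifts all log ratios of an array by the same amount and does not correct for intensity, all 58 ratios were positive, 56 members were called higher and 0 lower (56 at an unadjusted p under 0.05), against 67% of all genes higher and 17% lower, and 15 of 58 lay below the median of all genes, then 0.69.

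**Figure D1:**
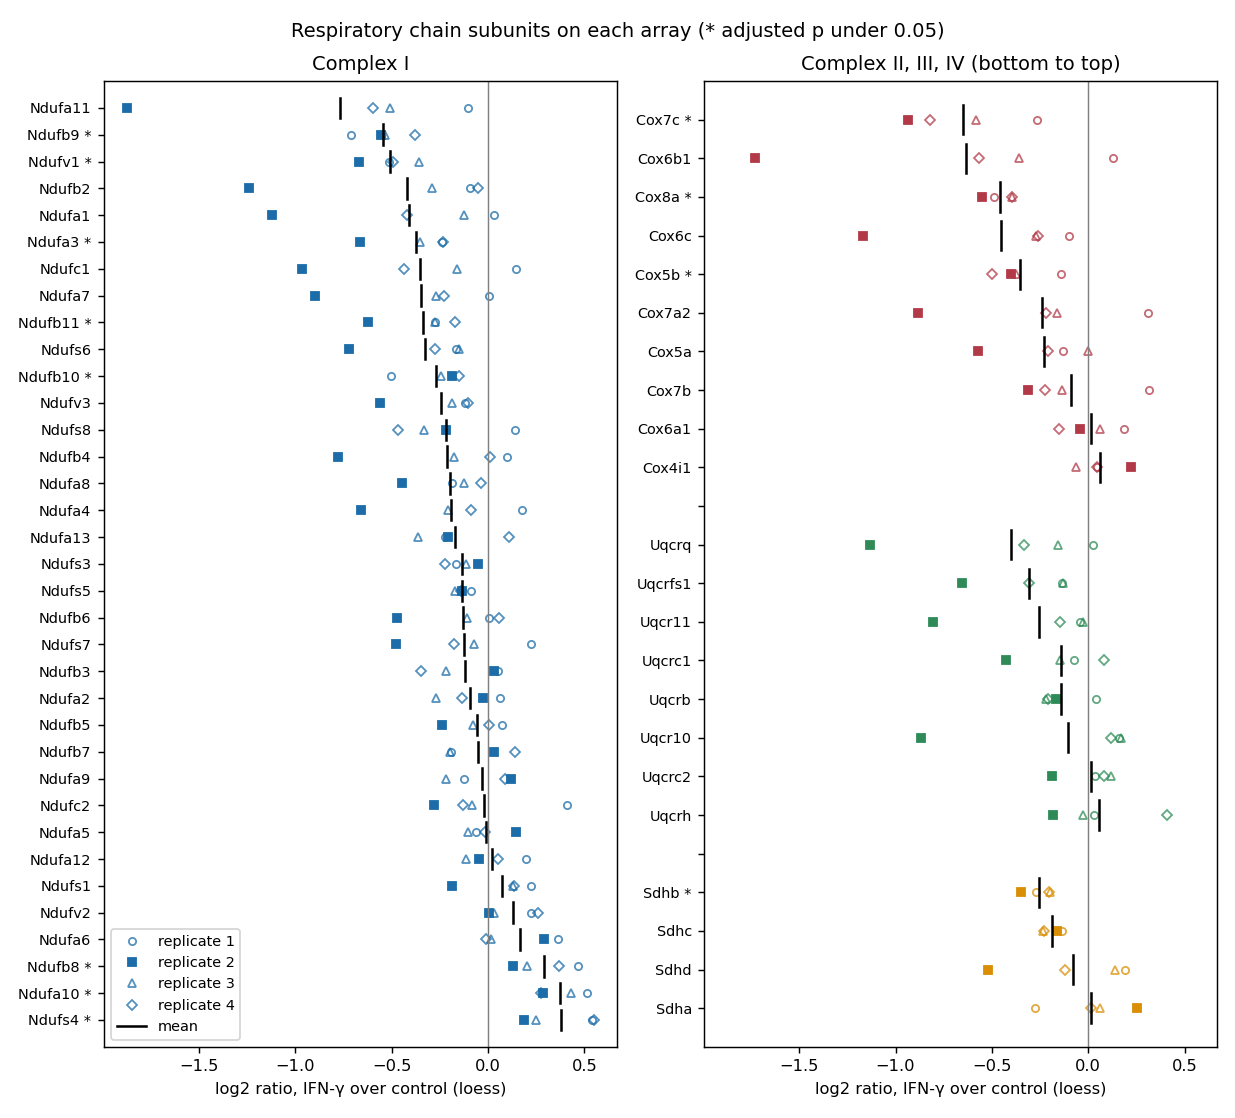
Log2 ratio of IFN-γ over control after loess for 57 of the 58 subunits, with complex I on the left and complexes IV, III and II from top to bottom on the right. Symbols are the 4 arrays (replicate 2 filled), black ticks are means and asterisks mark members past the threshold. Most means lie a little below 0 under loess, all are positive under median centring, and replicate 2 is the lowest array for 37 of the 58 members.

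Complex I held members in both directions. Of its 36 members 4 were higher, 5 lower and 27 did not pass, and its median was −0.14, with 0.88 under median centring. Ndufs4, an accessory subunit of the NADH-oxidising module, had ratios of 0.54, 0.19, 0.25 and 0.55 on replicates 1 to 4. All 4 arrays were above 0, with replicates 1 and 4 the higher ones. Its mean was 0.38 ± 0.19 (adjusted p = 0.0196, limma), a 1.3-fold rise. Ndufa10, an accessory subunit of the membrane arm, had 0.51, 0.29, 0.43 and 0.27, again all above 0, with a mean of 0.38 ± 0.12 (adjusted p = 0.01, limma). Ndufb8 had 0.47, 0.13, 0.20 and 0.37, with a mean of 0.29 ± 0.15 (adjusted p = 0.0323, limma). Ndufs4, Ndufa10 and Ndufb8 kept a positive sign under every scaling tried. Under median centring and with no normalization all 58 members were positive, so the sign there does not set these genes apart.

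The lower members of complex I were 3 Ndufb subunits, Ndufa3 and the core subunit Ndufv1. Ndufb9, an accessory subunit of the membrane arm, had −0.71, −0.55, −0.54 and −0.38 on replicates 1 to 4. The 4 arrays lay close together and all were below 0. Its mean was −0.54 ± 0.14 (adjusted p = 0.0039, limma), a 1.46-fold lower level under loess, and 0.49 under median centring. Ndufv1, the core subunit that binds NADH and the flavin, had −0.51, −0.67, −0.36 and −0.50, with a mean of −0.51 ± 0.13 (adjusted p = 0.00444, limma) and 0.52 under median centring. Ndufa3 had −0.24, −0.66, −0.36 and −0.23, with replicate 2 the lowest and a mean of −0.37 ± 0.20 (adjusted p = 0.0233, limma). Ndufb11 and Ndufb10, of the membrane arm, had means of −0.34 ± 0.20 and −0.27 ± 0.16 (adjusted p = 0.0317 and 0.043, limma). Ndufb8, Ndufb10 and Ndufb11 fall outside the rule for naming genes and were named after their values were seen. The same holds for Ndufs1, Ndufs3, Ndufa9, Uqcrfs1, Uqcrc1, Uqcrc2, Uqcrq, Cox4i1, Ndufa11 and Cox6b1. Outside the members it holds for Cyc1, Ndufab1, Cox4i2, Cox6b2, Tfam, Ppargc1a and Nrf1.

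Within complex I the subunit classes had similar medians under loess. The 7 core subunits, among them those that carry the flavin and the iron-sulphur clusters, had a median of −0.12. The 29 accessory subunits had a median of −0.17. The 10 Ndufb members, all of the membrane arm, had 1 higher and 3 lower with a median of −0.17, the 13 Ndufa members 1 and 1 with −0.17, and the 4 accessory members named Ndufs or Ndufv 1 and 0 with −0.19. The differences between these classes were not tested. Ndufa13, the brightest complex I probe, had −0.22, −0.21, −0.36 and 0.11 and did not pass (−0.17 ± 0.20, adjusted p = 0.192, limma). Ndufs1, the largest core subunit, had 0.07 ± 0.18 and Ndufs3, another core subunit, had −0.14 ± 0.07, and neither passed.

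Complex II, which is also an enzyme of the tricarboxylic acid cycle, had a median of −0.13 over its 4 members (0.87 under median centring). With the mean of each gene's probes it was −0.06, and probe by probe −0.03. Sdhb, the iron-sulphur subunit, had −0.27, −0.35, −0.20 and −0.21 on replicates 1 to 4. All arrays were below 0 and close together. Its mean was −0.26 ± 0.07 (adjusted p = 0.0235, limma), and it was the 1 member of complex II past the threshold, but its second probe had 0.05 ± 0.19 and the mean of both probes did not pass (−0.10, adjusted p = 0.295, limma). Sdhc, a membrane anchor, had −0.13, −0.16, −0.23 and −0.23 and did not pass (−0.19 ± 0.05, adjusted p = 0.0537, limma), with 0.12 ± 0.29 on its second probe. Sdhc passed as lower without replicate 2 (adjusted p = 0.042), with ratios centred on the tested genes (0.035) and with no filter on dim probes (0.0486). It passed as higher under median centring (0.82, adjusted p = 5.93e-05) and with no normalization (1.88, adjusted p = 1.79e-06). With the mean of its probes the adjusted p was 0.768 (limma for each), the highest over its alternatives. Sdhd, the other anchor, had 0.19, −0.52, 0.14 and −0.12, with replicate 2 the lowest and a mean of −0.08 ± 0.33. Sdha, the flavoprotein, had −0.28, 0.25, 0.06 and 0.01, with a mean of 0.01 ± 0.22.

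No member of complex III passed the test in limma. Of its 8 members 6 had a mean below 0 under loess, and the median was −0.14 (0.87 under median centring). Uqcrfs1, the Rieske iron-sulphur protein, had −0.14, −0.66, −0.13 and −0.31, with a mean of −0.31 ± 0.25 (adjusted p = 0.0631, limma), and was called lower with ratios centred on the tested genes. The core proteins Uqcrc1 and Uqcrc2 had means of −0.14 ± 0.21 and 0.01 ± 0.14. Among the small subunits, Uqcrq had the lowest mean, −0.40 ± 0.51, with 0.02, −1.13, −0.16 and −0.33 on replicates 1 to 4, so that replicate 2 stood far below the rest. Uqcrh, the hinge protein and brightest of the complex, had 0.03, −0.18, −0.03 and 0.41, with a mean of 0.06 ± 0.25. In complex III 7 of the 8 members were lowest on replicate 2, and without that array the complex median was −0.06.

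Complex IV had the lowest median of the 4 complexes under loess, −0.30, and under median centring, 0.72, though the difference from the other complexes was not tested. Without replicate 2 its median was −0.16, against −0.13 in complex II. Of its 10 members 3 were lower, 0 higher and 7 did not pass. Cox8a, a small membrane subunit, had −0.49, −0.55, −0.40 and −0.39 on replicates 1 to 4. The arrays differed by little and all were below 0. Its mean was −0.46 ± 0.08 (adjusted p = 0.004, limma), a 1.37-fold lower level under loess, and its second probe had −0.36 ± 0.10. Cox7c, also a small membrane subunit, had −0.27, −0.94, −0.58 and −0.82, all below 0 but wide apart, with a mean of −0.65 ± 0.30 (adjusted p = 0.00907, limma). Its other probes had −0.44 ± 0.71 and −0.11 ± 0.14, and the mean of its 3 probes did not pass (−0.40, adjusted p = 0.0643, limma). The probe with −0.11 was dim, with a mean log2 intensity of 7.23 against 13.59 for the main probe of Cox7c. Cox5b, a zinc-binding subunit on the matrix side, had −0.14, −0.40, −0.38 and −0.50, with a mean of −0.36 ± 0.15 (adjusted p = 0.017, limma). Cox4i1, a large structural and regulatory subunit, had 0.06 ± 0.12 and Cox6a1, the brightest member, had 0.19, −0.04, 0.06 and −0.15 with a mean of 0.01 ± 0.14, and neither passed. Under median centring Cox8a, Cox7c and Cox5b had 0.57, 0.36 and 0.66, each below the 0.69 of all genes.

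Leaving out 1 array at a time changed which members passed. The lower calls of Cox7c, Cox8a, Ndufb9 and Ndufv1 held in all 4 of these fits. Ndufa10 was lost without replicate 3 (adjusted p = 0.0618), Cox5b without replicate 3 or 4 (0.0819 and 0.0798), and Ndufa3, Ndufs4 and Sdhb without replicate 1, 3 or 4, with adjusted p-values between 0.052 and 0.0911 (limma). Ndufb8, Ndufb10 and Ndufb11 did not pass without replicate 1, 3 or 4. Members higher and lower numbered 2 and 5 without replicate 1, 4 and 13 without replicate 2, 0 and 4 without replicate 3 (16 at an unadjusted p under 0.05 in either direction), and 1 and 4 without replicate 4. The share of all genes called higher and lower fell as well, to 13.2% and 8.29% without replicate 1. It was 10.2% and 5.91% without replicate 3 and 11.6% and 6.91% without replicate 4. Without replicate 2 it rose to 25.9% and 19.0%.

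Replicate 2 was the lowest array for 63.8% of members (37 of 58), against 39.4% of all genes. The member medians were 0.01, −0.38, −0.15 and −0.15 on replicates 1 to 4, and those of all genes tested lay between 0.02 and 0.04. Means at or below −0.30 were also found for 10 members that did not pass, and replicate 2 was the lowest array for all 10. They were Ndufa11, Ndufb2, Ndufa1, Ndufc1, Ndufa7, Ndufs6, Uqcrq, Uqcrfs1, Cox6b1 and Cox6c. Ndufa11 had −0.10, −1.87, −0.51 and −0.59 and Cox6b1, which lies at the dimer interface of complex IV, had 0.13, −1.73, −0.36 and −0.57, the widest spreads among members. Without replicate 2 the means of the 10 lay between −0.40 and −0.15, and Cox6c, Ndufa11, Ndufs6 and Sdhc passed as lower. The median over all members without it was −0.11, so the downward median under loess was present without this array but smaller.

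Most members lay among the brightest spots. Of the 58, 42 (72.4%) were among the 1568 brightest genes tested (the top 10%), and brightness of a spot is not a transcript level that can be set against that of another probe. Among those 1568 genes the median ratio under loess was −0.06, with 16.6% called higher and 19.1% lower, while its 42 members had a median of −0.21 and 33 of them lay below the median of the 1568. Under median centring the medians were 0.96 for the 1568 genes and 0.815 for these members. The sign of the member ratios thus turned with the scaling, whereas the median of these 42 members lay below that of the 1568 genes under both. Among the next 1567 genes by brightness, which held 12 members, the medians were close, at −0.03 for members and −0.02 for all under loess and 0.982 and 0.984 under median centring, and 6 of the 12 lay below.

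**Figure D2:**
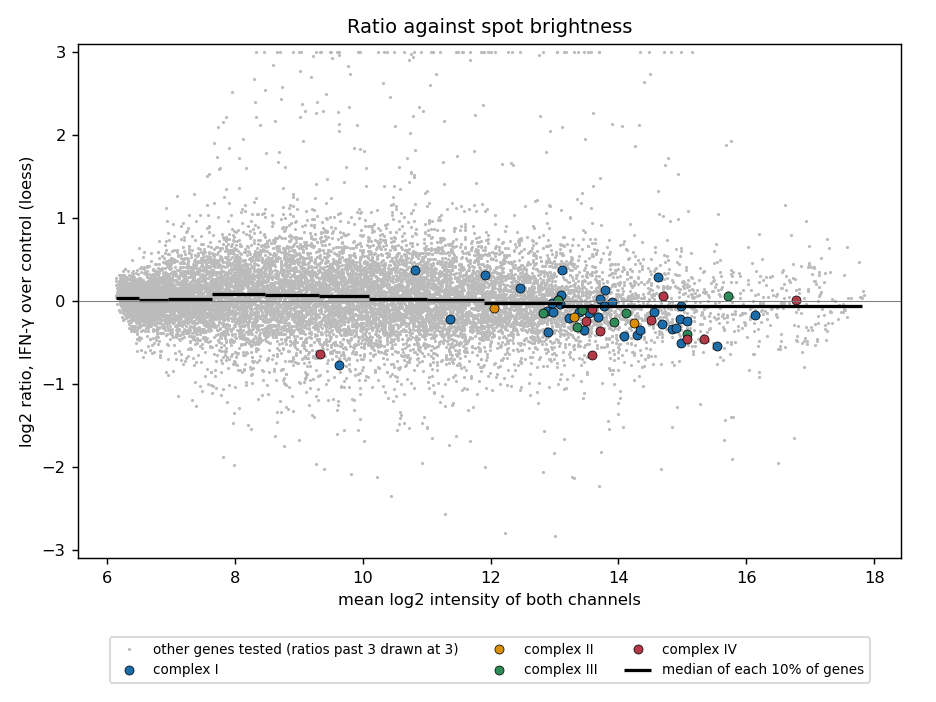
Mean log2 ratio after loess (vertical) against mean log2 intensity of both channels (horizontal) for the 15673 genes tested, with the 58 subunits coloured by complex and black bars at the median of each 10% of genes by intensity. Of the subunits 42 are among the brightest 1568 genes, and 33 of these are below the median of −0.06 there. All 58 ratios are positive under median centring.

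**Figure D3:**
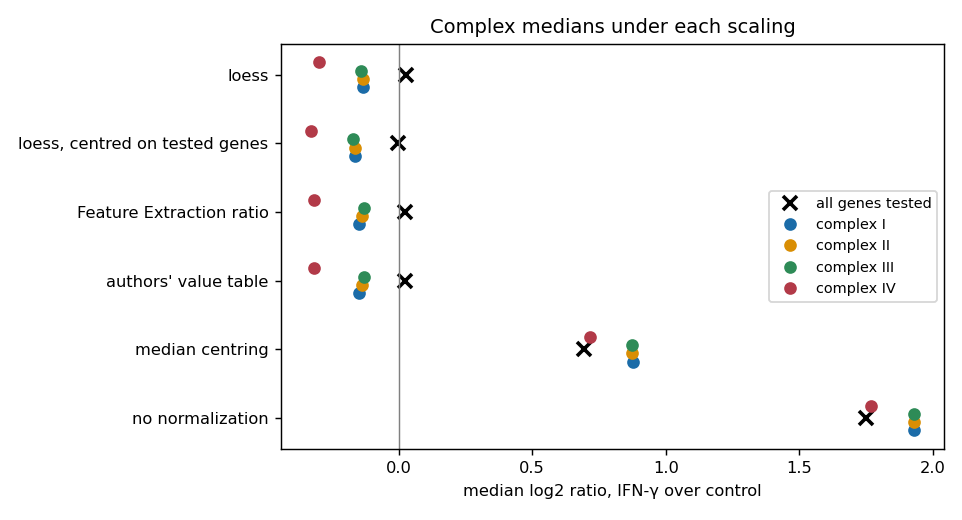
Median log2 ratio of each complex (dots) and of all genes tested (crosses) under 6 scalings. Under loess, Feature Extraction's ratios and the authors' value table the complexes lie below all genes. Under median centring or no normalization, which leave dependence on intensity in place, they lie above 0 and above all genes. Under median centring the 42 members among the 1568 brightest genes have a median of 0.815, against 0.96 for those genes.

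Genes with more than 1 tested probe gave a measure of how far a call rested on the probe. Of the 58 members 14 had several. Tested probe by probe, 4 of the 75 probes were higher and 11 lower, against 16.5% and 12.6% of all 28921 probes tested. Both probes of Cox8a were called lower, as were both probes of Ndufb11 (−0.34 ± 0.20 and −0.49 ± 0.21). The second Ndufb11 probe was dim, with a mean log2 intensity of 6.65 against 14.84 for the first. It was above background on 3 arrays in each channel. The probes of Uqcr10, a small subunit of complex III, had −0.10 ± 0.51, −0.11 ± 0.49 and −0.67 ± 1.14, and none passed. On replicate 2 these 3 probes had −0.87, −0.84 and −2.36, and on the other arrays they lay between −0.35 and 0.17. Uqcr10 and Cox7c were the members whose probes differed by more than 0.5.

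Muscle isoforms of complex IV, which are not among the members, were lower in treated cells under loess, and Cox6a2, Cox7a1 and Cox8b each passed the test. Lower ratios were not confined to them. Cox4i2, another complex IV isoform outside the members, had −0.33 ± 0.07 (adjusted p = 0.0101, limma), and Cox6b2 had −0.22 ± 0.20 and did not pass. Of 9 tested subunits and isoforms outside the rule 0 were higher and 4 lower (44.4% called against 33.7% of all genes). In mature heart and skeletal muscle Cox6a2, Cox7a1 and Cox8b take the place of Cox6a1, Cox7a2 and Cox8a. Cox6a2 had −0.32, −2.02, −1.03 and −0.83 (mean −1.05 ± 0.71, adjusted p = 0.0232, limma) and Cox8b had −0.45, −2.44, −0.84 and −1.04 (mean −1.19 ± 0.87, adjusted p = 0.0287, limma). Both were below 0 on every array and lowest on replicate 2. Cox7a1 had −0.36, −0.69, −0.45 and −0.41 (mean −0.47 ± 0.15, adjusted p = 0.0066, limma). The muscle isoform minus its counterpart was −1.06 ± 0.66 for Cox6a2, below 0 on 4 of 4 arrays, −0.24 ± 0.35 for Cox7a1 and −0.73 ± 0.82 for Cox8b, each below 0 on 3 of 4. Exact sign-flip permutation tests of these 3 differences, two-sided, gave p = 0.125, 0.375 and 0.25 (adjusted 0.375 each), and with 4 arrays p cannot go below 0.125. Without replicate 2 the differences were −0.76, −0.38 and −0.35. Under median centring they were −1.11, −0.53 and −0.92, and Cox7a1 alone of the 3 muscle isoforms was positive (0.24). The muscle isoforms were dimmer than their counterparts, with mean log2 intensities of 11.9, 8.86 and 9.46 against 16.8, 13.5 and 15.1. Median centring does not correct for intensity, and the part of intensity in these differences was not tested.

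**Figure D4:**
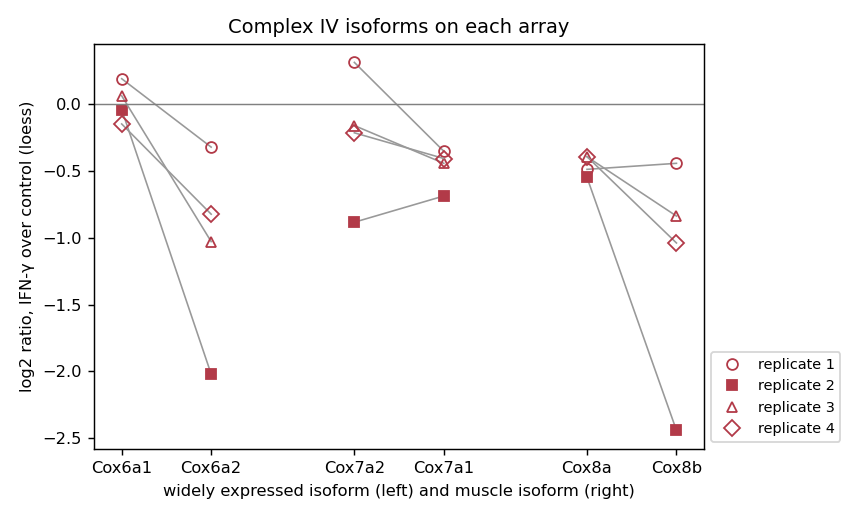
Log2 ratio of IFN-γ over control after loess on each array for 3 widely expressed complex IV isoforms (left of each pair) and their muscle isoforms (right), with lines joining values of 1 array. Cox6a2 lies below Cox6a1 on all 4 arrays, and Cox7a1 and Cox8b lie below their counterparts on 3 of 4. Under median centring Cox7a1 turns positive and the 3 differences stay negative. The muscle isoforms are dimmer than their counterparts, and median centring does not correct for intensity.

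Other genes around the chain moved in both directions, by small amounts for most. Cyc1, the cytochrome c1 subunit of complex III that carries another name, had −0.22 ± 0.30, and Ndufab1, the acyl carrier protein bound to complex I, had −0.02 ± 0.31, and neither passed. Of 15 tested ATP synthase genes 1 was higher and 1 lower (13.3% called against 33.7% of all genes), with a median of −0.09. Atp5pb, of the peripheral stalk, had 0.45, 0.50, 0.23 and 0.34, all above 0 (adjusted p = 0.01, limma), and Atp5o, also of the stalk, had −0.29, −0.28, −0.41 and −0.12 (adjusted p = 0.029, limma). Atp5b, the catalytic beta subunit, had 0.14 ± 0.15 and did not pass. No probe was assigned to the mitochondrially encoded subunits, which were not analysed here.

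Assembly factors, which build the complexes without staying in them, were called in both directions for complexes I and IV. Of 16 complex I assembly genes 3 were higher and 4 lower (43.8%, median −0.01). Of 9 for complexes II and III 1 was higher and 0 lower (11.1%, median 0.03). Of 21 for complex IV 4 were higher and 4 lower (38.1%, median −0.14). The share called over all genes tested was 33.7%. Ndufaf5 had the lowest mean, −2.12 ± 1.75, with −0.74, −4.66, −1.23 and −1.85 on replicates 1 to 4, so that all arrays were below 0 and far apart. Tmem126b was higher at 0.50 ± 0.23 and Timmdc1 lower at −0.49 ± 0.28. Cox17, a copper chaperone of complex IV, was lower at −0.53 ± 0.23, Cmc1 higher at 0.52 ± 0.22, and Sdhaf3 higher at 0.35 ± 0.04.

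Genes that feed electrons or regulate the chain were mixed as well. Among 17 genes of electron carriers and donors to ubiquinone 3 were higher and 2 lower (29.4% called against 33.7% of all genes), with a median of 0.08. Etfa, a subunit of the electron transfer flavoprotein, was higher at 0.47 ± 0.07 and Coq6, of ubiquinone synthesis, lower at −0.51 ± 0.06, while Cycs, which encodes cytochrome c, had 0.20 ± 0.20 and did not pass. Among 17 regulators of mitochondrial biogenesis and DNA 4 were higher and 2 lower, with a median of −0.09. The share called was 35.3%, close to the 33.7% of all genes. Polg, the mitochondrial DNA polymerase, was higher at 0.55 ± 0.13, Gabpa at 0.38 ± 0.10 and Tfam, which packages and transcribes mitochondrial DNA, at 0.34 ± 0.05. The coactivator Ppargc1b was lower at −0.74 ± 0.40 under loess, its relative Ppargc1a had −0.26 ± 0.26 and Nrf1 had 0.07 ± 0.13, and the last pair did not pass.

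Of 14 tricarboxylic acid cycle genes 6 were higher and 2 lower (57.1% called against 33.7% of all genes), with a median of 0.19 under loess. Idh3a, a catalytic subunit of the NAD-dependent isocitrate dehydrogenase, had 0.98, 0.94, 0.95 and 1.12 on replicates 1 to 4. The arrays hardly differed, and the mean was 1.00 ± 0.08 (adjusted p = 0.000312, limma). Suclg2 and Idh3b were higher at 0.72 ± 0.25 and 0.52 ± 0.17, whereas Mdh2 had −0.16 ± 0.09 and did not pass. The median of the cycle genes lay above that of each complex on replicates 1, 3 and 4, and on replicate 2 it was −0.02 against −0.56 to −0.23 in complexes I to IV. This difference was not tested.

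**Figure D5:**
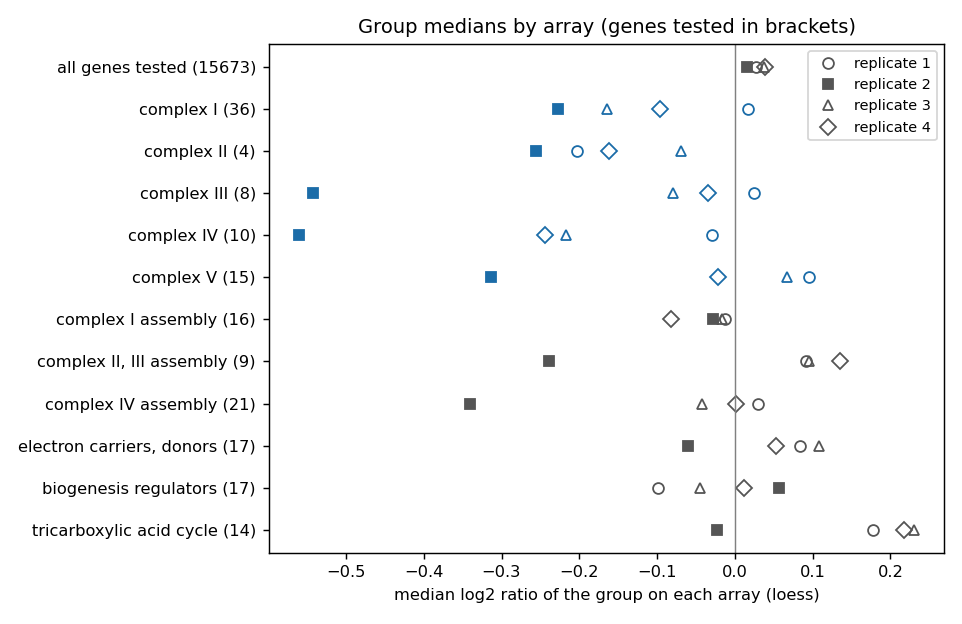
Median log2 ratio after loess of each gene group on each of the 4 arrays, with replicate 2 filled and the number of genes tested in brackets. Complex III and IV medians on replicate 2, −0.54 and −0.56, are the lowest points, and tricarboxylic acid cycle medians lie between 0.18 and 0.23 on the other arrays. Medians of complexes I to IV turn positive under median centring.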

How the data were processed

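Gene expression was measured on 4 two-colour Agilent mouse arrays. Per the file headers, the deposited scanner output comes from Feature Extraction 10.7.3.1 and gives median intensities of spots and their background. It also gives processed intensities and a deposited log10 ratio (Cy5 over Cy3). The authors' deposited value table is in log2 units. For probes above background it equals the scanner ratio turned to log2 (slope 3.32, r = 1 on each array), with column medians of −0.125 to −0.105 over all its probes.

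Median intensities were background-corrected by normexp (offset 50) and normalised by loess within arrays (limma 3.58.1, R 4.3.3). Control spots had weight 0 and flagged spots were left out. Accessions named 26055 probes through the RefSeq table (GRCm38.p6), and 13374 stayed unnamed. A probe was tested if well above background in 1 channel on at least 3 arrays, and the brightest tested probe stood for a gene. Mean ratios were tested against 0 with lmFit and eBayes, two-sided, with Benjamini-Hochberg adjustment at 0.05. The fit was also run on simulated data with 200 changed genes and independent noise for each gene. Spread shared by genes on an array was not simulated, so the run does not test the calls against it. Isoform differences used SciPy 1.17.1. The rule for named genes took called members with the 5 largest changes per complex, the brightest per complex, those whose probes differed by over 0.5, all of complex II, and from each list 3 called genes and the brightest uncalled one, and others were named after their values were seen. Members and lists were chosen with earlier results of these data known. Alternatives covered background, scaling, filters, probe choice, arrays and the methods' t-test. The values of 1 member and of 1 interferon check gene are not reported here.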

Additional observations from a re-analysis of the deposited data

Results flagged for a closer look

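In 3 of the 58 members 1 array stood apart from the other 3 by more than Dixon's limit, and in each it was replicate 2. Cox6c had −1.17 there and −0.27 to −0.10 on the other arrays, Uqcr10 had −0.87 against 0.12 to 0.17, and Uqcr11 had −0.81 against −0.15 to −0.03. Chance alone gives such a flag in about 1 in 20 groups, and 5.17% of members and 6.94% of all genes tested had one.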

How the results depend on the processing

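Medians kept their direction and no call turned without background correction, with subtraction, with Feature Extraction's ratios or the authors' table, without saturated spots (0 were saturated) and under both filters. Subtraction lost the calls of Ndufb8, Ndufb10, Ndufb11 and Sdhb, and Feature Extraction's ratios those of Ndufb8, Ndufb11 and Sdhb. Of all genes, subtraction called 17.8% higher and 12.6% lower and Feature Extraction's ratios 19.3% and 14.3%, against 19.8% and 13.9% in the main fit. Centring on tested genes added lower calls of Ndufs6, Sdhc and Uqcrfs1 (12 in all), while lower calls over all genes went from 13.9% to 16.4%. With no filter that of Sdhc was added, and 10.9% of 19751 genes were lower. Under median centring 56 members were higher and 0 lower (67% and 17% of all genes), with medians of 0.867 (all), 0.877, 0.873, 0.873 and 0.717 (complexes I to IV). Cox5b, Cox7c, Cox8a, Ndufa13, Ndufa3, Ndufb9, Ndufv1, Sdhb, Sdhc, Sdhd and Uqcr10 then had 0.659, 0.362, 0.571, 0.868, 0.635, 0.49, 0.519, 0.763, 0.821, 0.926 and 0.908. With no normalization 58 were higher and 0 lower (95.6% and 0% of all genes), with medians of 1.92, 1.93, 1.93, 1.93 and 1.77, and these genes had 1.72, 1.42, 1.63, 1.93, 1.69, 1.55, 1.58, 1.82, 1.88, 1.98 and 1.97. Both settings leave dependence on intensity in place. Probe by probe the complex II median was −0.033. Leaving out 1 array gave 0 to 4 members higher and 4 to 13 lower, with medians of −0.201 to −0.114. Of all genes it gave 10.2% to 25.9% higher and 5.91% to 19% lower. The methods' unpaired t-test on channel values called 0 members higher and 0 lower (3 at an unadjusted p under 0.05) and 250 and 36 of all genes. Among all calls 58.9% were higher under loess, 79.8% under median centring and 52.2% with tested-gene centring. The test of within-array ratios already pairs treated with control RNA by array.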
